A study of Homo sapiens with 8 samples.

Results

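Caspases are cysteine proteases that cells make as inactive precursors and that cleave their substrates after aspartate residues. Messenger RNA was examined for 7 human caspase genes in LP-1, an established multiple myeloma cell line, after exposure to inhibitors of 2 bromodomain families. The 7 genes, CASP1, CASP2, CASP4, CASP6, CASP8, CASP9 and CASP10, were picked by symbol from the 63129 genes of the deposited table, and all 7 passed the filter that left 14732 genes, an average of 1 RPKM or more over the libraries. RPKM is the number of reads mapped to a gene, scaled to gene length and to library size. The genes had been listed with both comparisons below already known and without a stated cutoff, so their changes are given as a description, with standard errors and no p-value. SGC-CBP30, an inhibitor of the CBP/EP300 bromodomains, was used at 2.5 μM, and CPI203, an inhibitor of the BET bromodomains, at 0.25 μM, each for 6 hr. Each compound had 2 libraries and was compared with 2 DMSO libraries, 8 libraries in all, from the same unmodified cell line. Controls were matched by shared series of library names, and each such set is called an experiment here. The labels do not state that the libraries of a set were run together. Each compound was used at a single dose and time, and the doses differ, so differences between the compounds apply to these conditions only.

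As background, caspases are grouped by their place in cell death. CASP8 and CASP10 are initiators that bind the adaptor FADD at death receptors, CASP9 is the initiator of the apoptosome built on APAF1 and cytochrome c, and CASP2 can be activated on a platform of PIDD and CRADD. CASP6 is an executioner that cleaves lamins. CASP1 and CASP4 are inflammatory caspases that cleave gasdermin D, and CASP1 also matures interleukin-1β. A caspase is switched on by assembly or cleavage of its protein, which mRNA levels do not show.

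Depth was estimated from the steps of low RPKM values at between 26100000 and 50100000 reads per library, highest in the SGC-CBP30 libraries. The libraries carried a plasma cell profile, with 8 of 9 plasma cell markers averaging 1 RPKM or more and CD27 below it. Their summed level was 2150 to 2180 RPKM with SGC-CBP30 against 2620 to 2660 RPKM in its DMSO libraries, and 2270 to 2310 RPKM with CPI203 against 3070 to 3200 RPKM. IGJ was the largest part of these sums, at a mean of 1500 RPKM over the 8 libraries. Only SDC1 was above its DMSO level with SGC-CBP30 (1.1 relative to DMSO), and only PRDM1 with CPI203 (1.29). The part of the plasma cell markers in the caspase levels was not tested. Markers of other cell types were near 0, with sums of at most 2.31 RPKM for 5 B cell, 2.87 for 5 T and NK cell, 0.321 for 5 myeloid and 0.221 for 5 epithelial and fibroblast genes. PAX5, MPO, EPCAM, KRT19 and DCN were listed at 0 in all 8 libraries. In bulk RNA, fewer cells of a type and less RNA per cell cannot be told apart. Of the genes the study centres on, IRF4 had log2 fold changes of -1.36 with SGC-CBP30 and -0.17 with CPI203, and MYC of -0.49 and -2.96.

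The 7 genes lie on 5 chromosomes, with positions in hg19. CASP10 (ENSG00000003400, chr2:202047603-202094129) and CASP8 (ENSG00000064012, chr2:202098165-202152434) are neighbours 4035 bases apart, with CFLAR on the other side of CASP10. CASP4 (ENSG00000196954, chr11:104813592-104840163) and CASP1 (ENSG00000137752, chr11:104896169-104972158) are separated by CASP5. CASP2 (ENSG00000106144) lies at chr7:142985307-143004789, CASP6 (ENSG00000138794) at chr4:110609784-110624739 and CASP9 (ENSG00000132906) at chr1:15817326-15853029. The annotated span of CASP1 holds the whole of CARD16, a gene related to the CASP1 prodomain, at a mean of 4.38 RPKM, so reads of these genes can be shared between them and the CASP1 level is uncertain. CASP6 shares 91 bases with CCDC109B, which had a mean of 6.08 RPKM. The other genes overlapping a member had a mean of at most 0.157 RPKM.

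RefSeq promoter windows of build GRCh38.p14 (250 bases before to 50 after a start) were found for 5 of the 7 genes, CASP2, CASP4, CASP6, CASP8 and CASP9, with 9 starts in all. The 250 bases before the start are printed for the caspases with the most distinct patterns. CASP9 (its upstream start, chr1:15524791-15525040, minus strand) was higher with both compounds, CASP4 (chr11:104968575-104968824, minus strand) had the largest change with CPI203, and CASP6 (chr4:109703446-109703695, minus strand) lay on opposite sides of DMSO. Capitals mark matches on either strand to the GC box GGGCGG or the CCAAT box CCAAT.
CASP9: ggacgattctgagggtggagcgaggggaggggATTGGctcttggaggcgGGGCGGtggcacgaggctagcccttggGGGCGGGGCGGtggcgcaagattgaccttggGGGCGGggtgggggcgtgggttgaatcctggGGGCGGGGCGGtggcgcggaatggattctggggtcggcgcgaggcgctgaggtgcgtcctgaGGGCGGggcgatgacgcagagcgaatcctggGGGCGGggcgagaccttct
CASP4: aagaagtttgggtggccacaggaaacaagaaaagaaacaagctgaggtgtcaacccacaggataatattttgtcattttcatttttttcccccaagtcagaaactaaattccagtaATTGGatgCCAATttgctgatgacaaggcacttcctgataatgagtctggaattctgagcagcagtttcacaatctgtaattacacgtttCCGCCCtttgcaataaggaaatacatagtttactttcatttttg
CASP6: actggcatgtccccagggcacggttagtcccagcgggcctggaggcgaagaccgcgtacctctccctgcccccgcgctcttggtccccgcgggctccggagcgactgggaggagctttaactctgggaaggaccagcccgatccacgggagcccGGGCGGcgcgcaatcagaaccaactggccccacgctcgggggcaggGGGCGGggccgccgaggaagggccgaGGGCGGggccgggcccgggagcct
The GC box was found in 6 of the 9 windows, against 45% of 35116 windows of all genes. Each of the 5 genes had it in at least 1 window, and no share per gene was computed for all genes. The upstream CASP9 window held 9 matches, some of them overlapping and 1 of them after the start and not printed, the CASP6 window 3 and the CASP4 window 1. The CCAAT box was in 4 windows (34.6% of all windows). The core of the interferon-stimulated response element (GAAA, any 2 bases, GAAA) was found in 1 window, that of the upstream CASP8 start (3.57% of all windows), which also held the only match to the GAS motif TTCNNNGAA (7.66%). The E-box CACGTG was in none of the 9, against 7.26% of all windows. A match is a run of letters and not a shown binding site.

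In DMSO, CASP8 was the most abundant of the 7 in both experiments, at 40.8 ± 1.06 and 45 ± 0.0201 RPKM (SD, n = 2). CASP6 followed at 34.5 ± 0.926 and 30.1 ± 0.853 RPKM, then CASP10, CASP2, CASP1 and CASP4, and CASP9 was lowest at 3.23 ± 0.499 and 4.12 ± 0.0647 RPKM. RPKM is scaled to gene length, so these levels can be set side by side, except for CASP1. Reads shared with CARD16 (6.07 and 4.61 RPKM in the same DMSO pairs) leave the place of CASP1 in this order uncertain. No neighbours in this order overlapped in the DMSO pair used as control for SGC-CBP30. In the pair used for CPI203, CASP1 (9.48 and 11.7 RPKM) and CASP4 (7.77 and 9.76 RPKM) did. With SGC-CBP30 the order changed at CASP2, which stood above CASP10, and CASP1 overlapped with CASP4. With CPI203 CASP6 stood above CASP8, and CASP9 stood above CASP1 and CASP4. The summed level of the 7 genes was 119 ± 0.797 RPKM with SGC-CBP30 against 142 ± 1.2 RPKM in DMSO, and 127 ± 0.827 RPKM with CPI203 against 142 ± 2.19 RPKM. The sum of the 2 inflammatory caspases was at 0.727 of its DMSO level with SGC-CBP30 and 0.5 with CPI203, and that of the 4 initiators at 0.943 and 0.862.

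**Figure D1:**
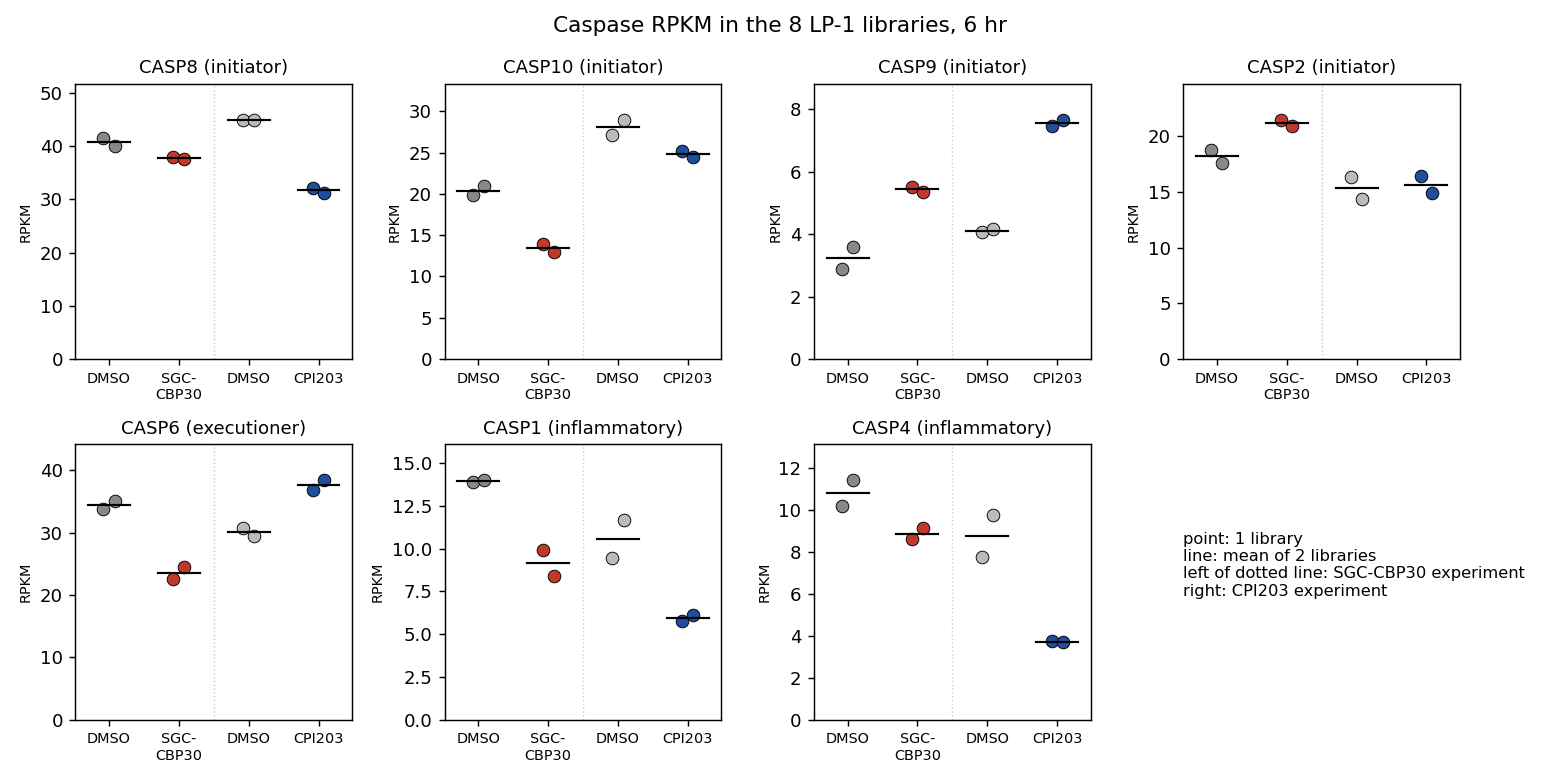
RPKM of the 7 caspase genes in each of the 8 libraries, 1 panel per gene with an axis from 0, points for single libraries and lines for the mean of 2. Against the DMSO of the same experiment, CASP9 was higher with both compounds and CASP1 and CASP4 were lower with both. CASP6 was lower with SGC-CBP30 (22.5 and 24.5 RPKM) and higher with CPI203 (36.8 and 38.4 RPKM).

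With SGC-CBP30, 3 of the 7 genes differed from DMSO by at least 1.5-fold with both treated libraries beyond both DMSO libraries, CASP9 upwards and CASP1 and CASP10 downwards. The same rule was met by 7.82% of the genes tested, 3.79% upwards and 4.03% downwards. All 7 genes lay outside the DMSO range, 2 above and 5 below, as did 73.1% of the genes tested. With CPI203, 3 genes also met the rule, CASP9 upwards and CASP1 and CASP4 downwards, against 28.2% of the genes tested, 13.6% upwards and 14.6% downwards. With CPI203, 6 of the 7 lay outside the DMSO range (80.8% of the genes tested), and CASP2 did not. The median log2 fold change of the 7 was -0.28 with SGC-CBP30 and -0.17 with CPI203, against 0.07 and -0.01 over all genes tested. Since these changes were known when the genes were listed, nothing is read from the comparison with the other genes. Fold changes are on the scale of log2(RPKM + 0.1).

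CASP9, the apoptosome initiator, was the only one of the 7 above its DMSO level by at least 1.5-fold with either compound, and it was so with both. It was at 5.50 and 5.36 RPKM with SGC-CBP30 against 2.88 and 3.58 RPKM in DMSO, and at 7.46 and 7.67 RPKM with CPI203 against 4.07 and 4.16 RPKM. Neither treated pair overlapped with its DMSO pair. On the log2 scale the change was 0.74 with SGC-CBP30 and 0.86 with CPI203 (standard error 0.110 each), levels of 1.68 and 1.84 relative to DMSO. Of all genes tested, 4.55% had a larger change in size with SGC-CBP30 and 14.8% with CPI203. The difference between the compounds, SGC-CBP30 minus CPI203, was -0.12 with a standard error of 0.156. CASP9 also differed between the DMSO pairs, with the CPI203 pair at 1.27 times the other.

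CASP8 and CASP10, the initiators at death receptors, were below DMSO with both compounds, but each mainly with a different one. CASP10 was at 13.9 and 13 RPKM with SGC-CBP30 against 19.9 and 20.9 RPKM in DMSO, a log2 fold change of -0.60 (standard error 0.0598). In the CPI203 experiment it was at 25.2 and 24.5 RPKM with CPI203 against 27.1 and 29 RPKM in DMSO, a log2 fold change of -0.17. The smaller CPI203 change depended on the control, at 0.05 when all 4 DMSO libraries were used. CASP8 was at 38.0 and 37.6 RPKM with SGC-CBP30 against 41.5 and 40.0 RPKM in DMSO, a log2 fold change of -0.11 (standard error 0.0421). With CPI203 CASP8 was at 32.2 and 31.2 RPKM against 45 and 45 RPKM in DMSO, a log2 fold change of -0.50. The groups were apart in all 4 of these comparisons, as for 73.1% of the genes tested with SGC-CBP30 and 80.8% with CPI203. Of all genes tested, 68.3% had a larger change in size than CASP8 with SGC-CBP30, and 34.0% with CPI203. For CASP10 these shares were 7.57% and 70.9%. Between the DMSO pairs, CPI203 experiment minus the other, the log2 difference was 0.14 for CASP8 and 0.46 for CASP10. The difference between the compounds was -0.43 (standard error 0.0845) for CASP10 and 0.40 (standard error 0.0595) for CASP8.

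CASP2 differed least from DMSO with CPI203 among the 7. It was at 21.5 and 20.9 RPKM with SGC-CBP30 against 18.8 and 17.6 RPKM in DMSO, a log2 fold change of 0.22 (standard error 0.0760). The groups were apart, as for 73.1% of the genes tested, and 42.3% of the genes had a larger change in size. Between the DMSO pairs, CPI203 experiment minus the other, CASP2 had a log2 difference of -0.25. With CPI203 it was at 16.4 and 14.9 RPKM against 16.3 and 14.4 RPKM in DMSO, where the libraries overlapped and the log2 fold change was 0.03.

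CASP6, the executioner of the list, was the only one of the 7 on opposite sides of DMSO with the 2 compounds. Among all genes tested, 20.3% lay apart from DMSO with both compounds in opposite directions and 40.2% in the same direction, as 5 of the 7 caspases did. CASP6 was at 22.5 and 24.5 RPKM with SGC-CBP30 against 33.8 and 35.1 RPKM in DMSO, a log2 fold change of -0.55 (standard error 0.0551). It was at 30.7 and 29.5 RPKM in DMSO and 36.8 and 38.4 RPKM with CPI203, a log2 fold change of 0.32. Neither change reached 1.5-fold, but with median scaling (-0.63) or quantile normalization (-0.59) of the libraries the SGC-CBP30 change did. The compounds differed by -0.87 on the log2 scale (standard error 0.0779). CCDC109B, which overlaps the end of CASP6, had log2 fold changes of -0.79 and 0.27, and the part of shared reads in either gene was not tested.

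The inflammatory caspases were below the DMSO of the same experiment with both compounds. The DMSO pairs differed too, with log2 differences (CPI203 experiment minus the other) of -0.41 for CASP1 and -0.30 for CASP4. CASP1 was at 9.94 and 8.39 RPKM with SGC-CBP30 against 13.9 and 14.0 RPKM in DMSO, a log2 fold change of -0.61. With CPI203 CASP1 was at 5.77 and 6.15 RPKM against 9.48 and 11.7 RPKM, a log2 fold change of -0.81 (standard error 0.110 for both). CARD16, inside the CASP1 span, had log2 fold changes of -0.67 and -0.56. CASP4 was at 8.60 and 9.11 RPKM with SGC-CBP30 against 10.2 and 11.4 RPKM in DMSO, a log2 fold change of -0.28 (standard error 0.110). With CPI203 it was at 3.73 and 3.69 RPKM against 7.77 and 9.76 RPKM in DMSO. This was the largest change among the 7 with either compound, a log2 fold change of -1.21 and a level of 0.424 relative to DMSO, and 6.63% of all genes tested had a larger change in size. The difference between the compounds was 0.93 for CASP4 (standard error 0.156) and 0.20 for CASP1 (standard error 0.155). With all 4 DMSO libraries as control, the SGC-CBP30 changes were -0.41 for CASP1 and -0.13 for CASP4. The CPI203 changes were then -1.01 and -1.36.

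**Figure D2:**
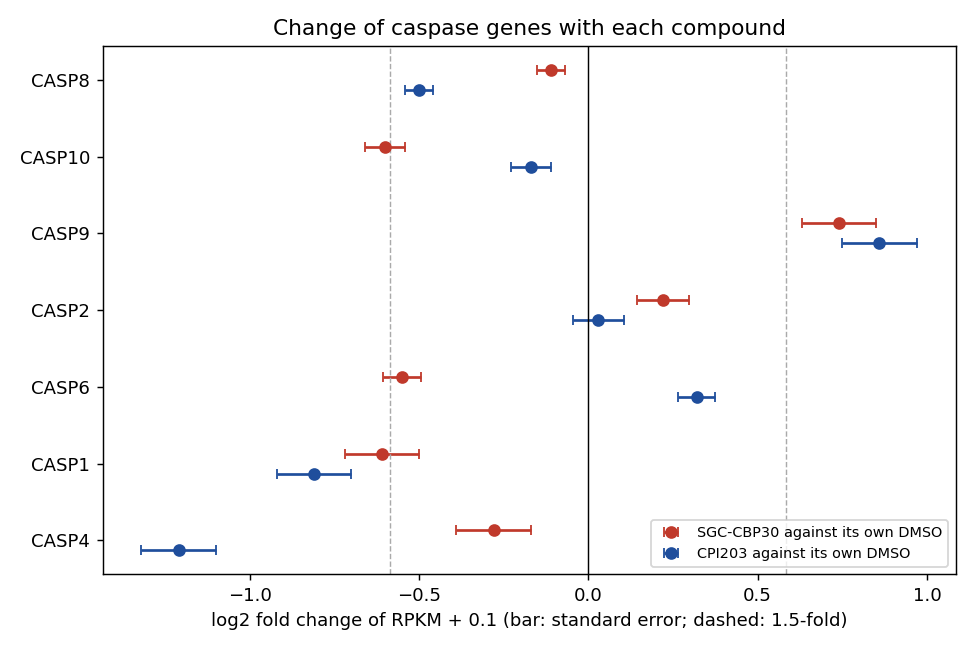
Log2 fold change of each caspase gene with SGC-CBP30 (red) and CPI203 (blue) against the DMSO libraries of its own experiment, with standard errors as bars and dashed lines at 1.5-fold. CASP9 lies to the right with both compounds, CASP4 lies at -1.21 with CPI203, and CASP6 lies on opposite sides of 0 with the 2 compounds.

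The calls with SGC-CBP30 lay close to the 1.5-fold line. Without SGC-CBP30 replicate 2, CASP1 and CASP10 were at -0.49 and -0.55 and CASP6 was at -0.61, and without replicate 2 of its DMSO libraries CASP10 was at -0.56. The 3 CPI203 calls were the same genes with any single library of the CPI203 experiment left out. Libraries of the other experiment do not enter these calls. The DMSO libraries of the 2 experiments did not overlap for any of the 7 caspases (71.3% of the genes tested), and none differed by 1.5-fold or more, against 8.33% of the genes tested, 4.21% of them higher in the CPI203 experiment. The largest of these differences was that of CASP10, 20.4 ± 0.717 against 28.1 ± 1.35 RPKM (SD, n = 2). With all 4 DMSO libraries as control, only CASP10 met the rule with SGC-CBP30, while CASP1, CASP4 and CASP9 all met it with CPI203.

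Genes of the pathways around the caspases were examined in 7 lists with 61 genes, of which 42 were tested with limma. A list of CASP5, CASP12 and CASP14 had no tested gene, with CASP5 and CASP12 at most at 0.0927 and 0.0735 RPKM in any library and CASP14 listed at 0. A gene was called at an adjusted p under 0.05 (Benjamini-Hochberg over all genes tested) and at least 1.5-fold. With SGC-CBP30, 1 was called higher and 5 lower, 14.3% of the 42 against 7.26% of all genes tested, of which 3.47% were higher. With CPI203, 5 were called higher and 12 lower, 40.5% of the 42 against 27.8% of all genes tested, of which 13.4% were higher. For 30 of the 42 (71.4%, against 50.3% of all genes tested) the responses to the 2 compounds differed at an adjusted p under 0.05. The SGC-CBP30 value was the higher one for 17 of them and the lower one for 13, a split of 14 and 16 with median scaling of the libraries. The lists were drawn up with earlier results of these data known, so their p-values are not independent evidence and nothing is read from their shares against those of all genes. The median log2 fold change of the 42 was -0.12 with SGC-CBP30 and -0.20 with CPI203. The smallest two-sided p of an exact permutation test with groups of 2 is 0.333, so the p-values rest on limma's pooled spread.

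At death receptors, 9 of 11 genes were tested. FAS, a death receptor, fell with both compounds, to 12.4 ± 0.376 RPKM with SGC-CBP30 from 22.8 ± 0.221 RPKM in DMSO (SD, n = 2), and from 12.3 ± 1.60 to 5.83 ± 0.335 RPKM with CPI203. The log2 fold changes were -0.87 (adjusted p = 9.47e-05, limma) and -1.06 (adjusted p = 4.28e-06, limma). The 2 DMSO pairs differed for this gene, and against all 4 DMSO libraries the SGC-CBP30 change had an adjusted p of 0.341 from limma. No other gene of the list was called with SGC-CBP30, although RIPK1, at 0.58, passed 1.5-fold without SGC-CBP30 replicate 1 (0.64) or replicate 2 of its DMSO libraries (0.59). With CPI203, CFLAR, the catalytically inactive relative of CASP8 that competes with it at FADD, fell from 70.0 ± 3.46 to 30.7 ± 2.97 RPKM (log2 fold change -1.19, adjusted p = 2.95e-07, limma). TNFRSF10A, a receptor for TRAIL, fell by 1.17 on the log2 scale (adjusted p = 1.34e-06, limma), and TRAF2, named here after its values were seen, fell by 0.87. RIPK1, a kinase of the complex, was the only one called higher with CPI203 (log2 fold change 1.01, adjusted p = 1.9e-06, limma). FADD had log2 fold changes of -0.19 and -0.15 and was not called.

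CFLAR, CASP10 and CASP8 stand in this order on chromosome 2, and their changes differed. The log2 fold changes with SGC-CBP30 were -0.42 for CFLAR, -0.60 for CASP10 and -0.11 for CASP8. With CPI203 they were -1.19, -0.17 and -0.50. CASP10, in the middle, thus had the largest change of the 3 with one compound and the smallest with the other.

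Among the partners of CASP9 all 6 listed genes were tested. APAF1, the scaffold of the apoptosome, rose with both compounds, to 4.28 ± 0.233 RPKM with SGC-CBP30 from 2.54 ± 0.304 RPKM in DMSO (SD, n = 2), and from 2.98 ± 0.207 to 8.51 ± 0.499 RPKM with CPI203. The log2 fold changes were 0.73 (adjusted p = 0.00114, limma) and 1.48 (adjusted p = 2.73e-06, limma), a difference of -0.75 between the compounds (adjusted p = 0.004, limma). It was the only listed gene called higher with SGC-CBP30, and with a pseudocount of 1 its change of 0.58 lay just under 1.5-fold. HTRA2, a mitochondrial protease that binds inhibitors of apoptosis, fell from 47.6 ± 0.987 to 25.2 ± 0.479 RPKM with CPI203 (log2 fold change -0.92, adjusted p = 1.19e-07, limma). It was also lower with SGC-CBP30, by less than 1.5-fold (log2 fold change -0.5, adjusted p = 3.33e-05, limma). CYCS, which encodes cytochrome c, had log2 fold changes of 0.07 and -0.16, and DIABLO 0.10 and 0.27. Of the CASP2 platform, neither PIDD (log2 fold changes -0.10 and 0.24) nor CRADD (0.13 and -0.32) was called.

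The partners of CASP1 and CASP4 were mostly at low levels, and 6 of 17 inflammasome and interleukin-1 genes were tested. With SGC-CBP30, AIM2, a sensor of cytosolic DNA, fell from 6.73 ± 0.00629 to 2.92 ± 0.241 RPKM (SD, n = 2), a log2 fold change of -1.18 (adjusted p = 2.94e-05, limma). PYCARD, the adaptor that joins sensors to CASP1, fell by 0.78 (adjusted p = 1.89e-04, limma) and CARD16 by 0.67 (adjusted p = 0.00266, limma) on the log2 scale. Against all 4 DMSO libraries the adjusted p from limma was 0.111 for PYCARD and 0.0882 for CARD16 with SGC-CBP30, and CARD16 was under 1.5-fold without replicate 2 of its DMSO libraries (-0.52) or with a pseudocount of 1 (-0.57). With CPI203, PYCARD fell by 0.94 (adjusted p = 1.02e-05, limma), CARD8 by 0.66 (adjusted p = 2.5e-04, limma) and AIM2 by 0.64 (adjusted p = 2.77e-04, limma). CARD8 was under 1.5-fold without CPI203 replicate 1 (-0.57), and AIM2 was under it without CPI203 replicate 2 (-0.58) or replicate 2 of its DMSO libraries (-0.56), against all 4 DMSO libraries (-0.51) and with a pseudocount of 1 (-0.56). GSDMD, the pore-forming substrate gasdermin D, had log2 fold changes of -0.26 and 0.04. The interleukin genes were hardly detected, with IL1B listed at 0 in all libraries and IL18 at 0.0506 RPKM or less, and NLRP3 was at 0.00846 RPKM or less.

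Of the inhibitors of apoptosis proteins, 5 of 7 were tested and each compound had 1 call. BIRC3 fell from 10.1 ± 0.210 to 5.64 ± 0.0441 RPKM with SGC-CBP30 (log2 fold change -0.83, adjusted p = 3.01e-05, limma), and had a log2 fold change of -0.17 with CPI203 (adjusted p = 0.0537, limma). The difference between the compounds was -0.65 (adjusted p = 4.22e-04, limma). BIRC2 rose from 19.5 ± 0.984 to 34.1 ± 2.52 RPKM with CPI203 (log2 fold change 0.81, adjusted p = 3.8e-06, limma). It also rose with SGC-CBP30, by less than 1.5-fold (log2 fold change 0.51, adjusted p = 3.75e-04, limma). For BIRC2 the compounds differed by -0.29 (adjusted p = 0.0258, limma). XIAP, which binds CASP9, had log2 fold changes of -0.30 and 0.26, neither with an adjusted p under 0.05.

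In the list of caspase substrates 14 of 15 genes were tested. The list also counts DFFB, which caspases free from its inhibitor DFFA and which is not itself counted as cleaved. None of the list was called with SGC-CBP30, although 9 had an adjusted p under 0.05 (limma) at less than 1.5-fold. The share of all genes tested at that p alone was not computed, so nothing is read from this count. With CPI203, 2 were called higher and 4 lower. DFFB, the nuclease that cuts DNA between nucleosomes once caspases free it, fell from 5.08 ± 0.449 to 0.739 ± 0.118 RPKM (SD, n = 2), a level of 0.146 relative to DMSO and a log2 fold change of -2.63 (adjusted p = 3.38e-07, limma). DFFA, its inhibitor and chaperone, fell by 0.59, and LMNB2 by 0.61; both were named after their values were seen. LMNA, the A-type lamin that CASP6 cleaves, rose from 60.5 ± 0.622 to 245 ± 6.71 RPKM with CPI203 (log2 fold change 2.02, adjusted p = 2.46e-09, limma). SPTAN1, a spectrin, rose by 1.31 on the log2 scale (adjusted p = 2.08e-08, limma) and GAS2 fell by 1.14 (adjusted p = 1.92e-08, limma). The response differed between the compounds by 2.56 for DFFB (adjusted p = 9.42e-06, limma) and by -1.72 for LMNA (adjusted p = 1.88e-07, limma). PARP1, a classical cleavage target, had log2 fold changes of -0.14 and -0.01.

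**Figure D3:**
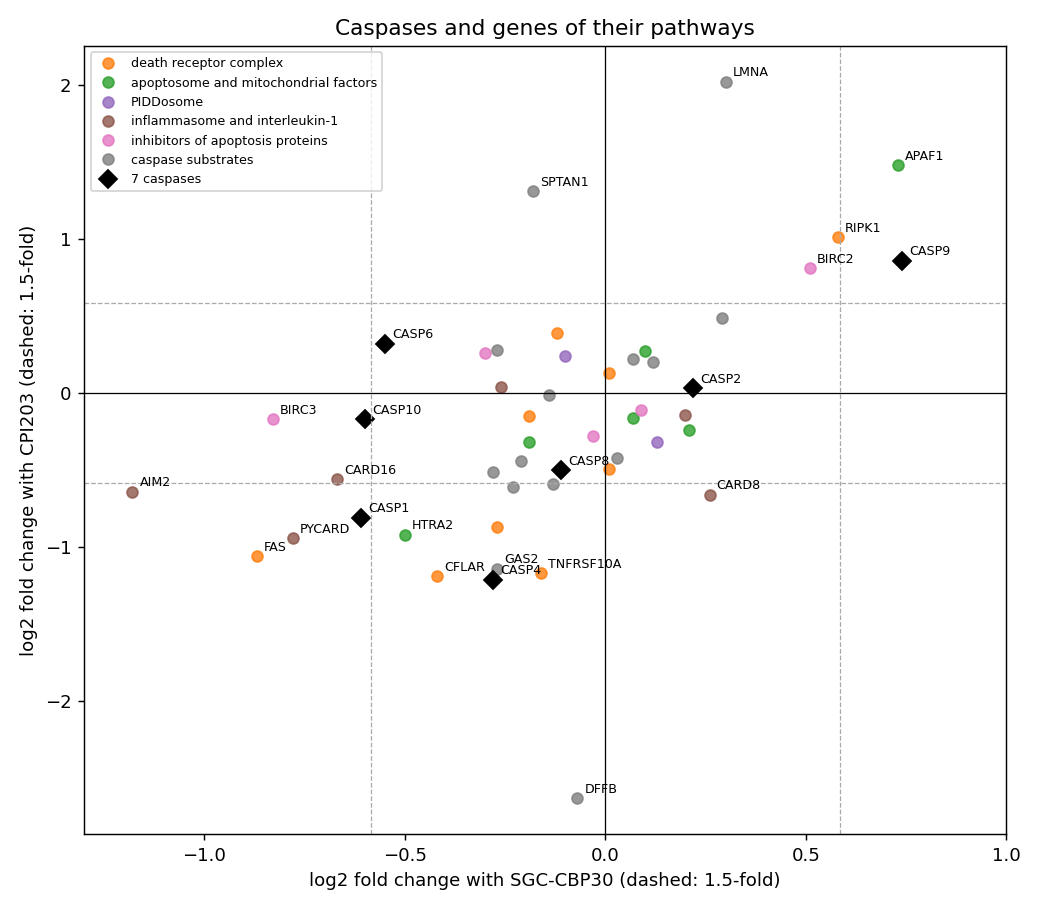
Log2 fold change with SGC-CBP30 (horizontal) and CPI203 (vertical) of the 7 caspases (black diamonds) and the 42 tested genes of the pathway lists (coloured points), with dashed lines at 1.5-fold. APAF1 and CASP9 lie at the upper right, FAS, PYCARD, AIM2 and CASP1 at the lower left, CASP6 at the upper left, and DFFB and LMNA far along the CPI203 axis with little change along the other.

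The caspases with the largest spread over the 8 libraries were CASP4, CASP9 and CASP1, and the genes most like them were sought by Pearson's r of log2(RPKM + 0.1). The 8 libraries form 4 groups of 2, so r mostly reflects 4 group levels, and it is given as a description. CASP4 was followed most closely by RP11-297D21.4 (r = 0.996) and CDC123 (r = 0.995), the latter at 119, 111, 112 and 79.4 RPKM in the SGC-CBP30 experiment's DMSO, SGC-CBP30, the CPI203 experiment's DMSO and CPI203. CASP9 was followed by SNAP29 (r = 0.997) and TNFRSF12A (r = 0.993), a receptor of the tumour necrosis factor family at 0.343, 2.80, 0.978 and 6.82 RPKM in the same groups. CASP1 was followed by ST8SIA2 (r = 0.992) and ZNFX1 (r = 0.991).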

How the data were processed

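The authors deposited 1 RPKM value per gene and library, made by a sequencing provider from total RNA treated with DNase on the column. The submitters' processing notes name TopHat 1.4.1, Cufflinks and hg19, and the annotation release is not given in the sources used here. How reads of overlapping genes were assigned is not given, so levels of such genes are uncertain. Controls were matched to compounds by a series of names shared in the labels, which do not state the match themselves. Replicate libraries are called biological replicates in the paper. The labels do not say that they came from separate cultures, so p-values measure the spread between these libraries. The 24 columns of other libraries in the table were not used.

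Of 63129 genes, 27 missed a value and were left out, and the 14732 averaging 1 RPKM or more over the 8 libraries were tested as log2(RPKM + 0.1) with limma 3.58.1 in R 4.3.3 (4 group means, trended eBayes, 4 residual and 5.5 prior degrees of freedom), with Benjamini-Hochberg adjustment. The fit was run on simulated data with independent normal noise, as the fit assumes, which checks the code only. No count test was run, since the files hold no counts. Depth was estimated from RPKM steps of single-exon genes, of which 54.9% to 69.8% fell within 0.05 of a whole read, so it is approximate. No pair of libraries shared more than 0.024% of its values exactly, among genes averaging 10 RPKM or more.

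The 7 caspases and the pathway lists were chosen with earlier results of these data known. Besides the 7, the genes named were CASP5, CASP12 and CASP14, in each list and for each compound up to 4 called genes with the largest change, genes overlapping a member, IRF4, MYC, and the 2 genes most like each of the 3 most variable members. Genes of the lists named without a call, TRAF2, DFFA and LMNB2 were named after their values were seen, and some genes are not reported here. The alternatives were scaling to the median, quantile normalization, a pseudocount of 1, both DMSO pairs as control, a replicate block, each library left out, a minimum fold of 2, an average of 5 RPKM or more, every gene above 0 in some library, no trend and separate fits. Python 3.11.15, pandas 2.3.3, numpy 2.4.6 and matplotlib 3.10.9 were used for tables and figures.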

Additional observations from a re-analysis of the deposited data

How the results depend on the processing

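With SGC-CBP30, the number of the 7 caspases at 1.5-fold or more and apart from DMSO was 3, and it was 1 with a pseudocount of 1, 1 with all 4 DMSO libraries as control and 0 at a minimum fold of 2. It was 4, with CASP6 lower as the added gene, under median scaling and under quantile normalization. With CPI203 it was 3, and 1 (CASP4) at a minimum fold of 2. The number of called pathway genes was 6 with SGC-CBP30 and 17 with CPI203. It was 3 with SGC-CBP30 when all 4 DMSO libraries were the control, and 1 and 9 at a minimum fold of 2. The lower counts at a minimum fold of 2 follow from the threshold itself, and the cause of the other changes was not tested. With 1 library left out, the caspase counts ranged from 2 to 3 with SGC-CBP30 and were 3 with CPI203, and the pathway counts ranged from 6 to 7, from 15 to 17 and, for the difference between the compounds, from 23 to 28. In these fits a lone library is assumed to vary like those of the other groups. A caspase count uses only the libraries of its own experiment, so leaving out a library of the other experiment could not change it. Of the 56 caspase fold changes recomputed with a pseudocount of 1, with either scaling or with all 4 DMSO libraries, 14 moved by more than the replicate SD, 10 of them with all 4 DMSO libraries.

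The paper speaks of DMSO controls paired with the treated replicates, without saying whether the pairs follow the replicate numbers, and the labels do not tie a number to a batch. In these data, same-numbered libraries did not deviate together: their deviations correlated at -0.17 in the SGC-CBP30 and -0.04 in the CPI203 experiment. With the replicate number as a block, the pathway counts were 6, 17 and, for the difference, 26 against 30 without it. For the caspase counts with the block, the overlap rule was replaced. Both same-numbered pairs had to change in the direction of the mean change. The counts stayed at 3 with each compound. With the numbers crossed, chosen after seeing the data, the pathway counts were 6, 17 and 34. Depth limits genes near 1 RPKM, such as DFFB with CPI203, more than the caspases.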
